A study of Sus scrofa with 18 samples.

Results

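The nuclear genes for the machinery that carries proteins into mitochondria and folds, cuts or clears them there were examined in 2 muscles of pigs in an intensive care model of critical illness. Genes were taken where the name on the array began with TIMM or TOMM, the prefixes of the inner and outer membrane translocases, or was one of 18 further listed genes for sorting, motor, processing, folding, protease and membrane organising proteins. This gave 33 genes with 57 probe sets, of 12132 named genes and 23999 probe sets tested. A probe set is a group of short oligonucleotides on an Affymetrix array that together report 1 transcript. Of the 33 genes, 29 stood under the searched name and 4 (HSPA9, LONP1, SAMM50 and TIMM10B) under an older one. The listed genes PMPCA and PHB2 were found under no such name and were not analysed under their own names. The probe set that represents PHB, however, has REA, an older name of PHB2, as its homolog entry, so it may report PHB2. The rule itself uses names and no measured values, but it was set with earlier results of these data known.

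The arrays came from 5 female domestic piglets with a mean body weight of 26.9 kg, kept under anaesthesia and mechanical ventilation for 5 days as a model of acute quadriplegic myopathy, the muscle weakness of intensive care. All of them received pancuronium, a neuromuscular blocker, at 0.1 mg/kg/h, betamethasone, a corticosteroid, at 0.1 mg/kg 2 times a day, and 1 h of Escherichia coli endotoxin at 36 µg/kg/h. The 4 groups were masseter (a chewing muscle) at day 5 and at day 1, 5 arrays each, and biceps femoris (a thigh muscle) at day 5 and at day 1, 4 arrays each. The title of the series sets the sparing of chewing muscle against biceps femoris. The labels name no piglets without the drugs and endotoxin, so the treatment and the passage of time cannot be told apart. Day 1 is the control by titles and descriptions, but source and treatment labels call biceps femoris day 1 treated. No label says how much treatment preceded day 1. The breed given in the sample tags, wild boar, differs from the domestic pigs of the protocol.

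Most mitochondrial proteins are made in the cytosol and reach the organelle through the TOM complex of the outer membrane. From there the SAM complex inserts barrel-shaped outer membrane proteins, small TIM chaperones escort hydrophobic proteins across the intermembrane space, TIM22 inserts carriers into the inner membrane, and TIM23 passes proteins with a presequence to the motor that pulls them into the matrix. The matrix peptidase then removes the presequence, the HSP60 and HSP10 chaperonin folds the protein, and proteases remove what is damaged or unassembled. Skeletal muscle depends on this route for the enzymes of oxidative phosphorylation.

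All values are log2 values made by the authors with RMA, a method that normalizes arrays together and summarises each probe set. The muscles had been normalized apart: the largest gap between sorted values of a pair of arrays was 0.223 within masseter, 0.23 within biceps femoris and at least 0.517 between muscles. Levels are therefore set against each other only within a muscle, and the muscles are compared through their changes. Of 10 muscle fibre markers, 7 were found, and all 7 lay above the array median on every array of every group. Their mean was 13.34 to 14.11 in masseter at day 5 against 14.13 to 14.23 at day 1, and 13.12 to 13.42 in biceps femoris at day 5 against 13.70 to 13.80 at day 1. In masseter 1 was called higher (DES) and 2 lower (MB and MYBPC1), and in biceps femoris 0 higher and 2 lower (MB and MYBPC1). The lower mean in biceps femoris is not shared by all markers. MB fell there by 2.56 and MYBPC1 by 1.11 on the log2 scale, while CKM, TTN, TNNC2, PYGM and DES changed by -0.13 to 0.30. The 7 fibroblast markers averaged 9.22 to 11.17 in masseter at day 5 against 10.54 to 11.51 at day 1, with 0 called higher and 1 lower. In biceps femoris they averaged 9.18 to 10.45 at day 5 against 11.21 to 11.88 at day 1, with 0 called higher and 6 lower. Of 9 macrophage and leukocyte markers, 1 was called higher in masseter and 0 in either direction in biceps femoris. Of 6 endothelial markers, VWF was called higher in masseter (by 0.82 ± 0.13, day 5 minus day 1 on the log2 scale), and 2 fell in biceps femoris, PECAM1 by -0.82 ± 0.21 and CDH5 by -0.75 ± 0.19. Of 3 satellite cell markers, CALCR was called lower in masseter (-1.60 ± 0.33). The part of these shifts in the results below was not tested. In RNA from whole muscle, fewer cells of a type and less RNA per cell cannot be told apart.

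A change is day 5 minus day 1 on the log2 scale, with its standard error (SE) from limma, a linear model fitted to all probe sets. A gene was called higher or lower where the Benjamini-Hochberg adjusted p over all 23999 probe sets was under 0.05. Where a gene had several probe sets, the one with the highest average across the 18 arrays represents it, and the others are described where they differ.

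In masseter, 6 of the 33 genes fell and 0 rose. The genes that fell were SAMM50, TIMM44, CLPX, IMMT, TIMM8B and PMPCB. These were 18.2% and 0% of the genes, against 6.51% called lower and 7.31% called higher among all probe sets, and 8.37% and 9.40% among all named genes with 1 probe set each. The day 5 arrays lay below all day 1 arrays for 3 genes and above them for 0, where 5.82% and 5.58% of all probe sets did so. At an unadjusted p under 0.05, 5 of the 33 genes were higher (15.2%, against 14.3% of all probe sets) and 9 lower (27.3%, against 14.6%). The median change of the 33 genes was -0.08, beside -0.03 over all probe sets. Each piglet gave 1 masseter array at day 5 and 1 at day 1, and with the piglet as a block in limma 3 of the 6 calls were kept (SAMM50, TIMM44 and CLPX), while the adjusted p was 0.0501 for IMMT, 0.093 for TIMM8B and 0.0927 for PMPCB.

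In biceps femoris, 7 of the 33 genes rose and 5 fell. GRPEL1, TIMM10, TOMM34, TOMM20 and YME1L1 rose, as did the probe sets that represent PHB and LONP1, whose homolog entries name other genes. SAMM50, PMPCB, TIMM44, IMMT and TIMM22 fell. These were 21.2% and 15.2% of the genes, against 9.89% called higher and 7.27% called lower among all probe sets, and 13.2% and 9.19% among all named genes with 1 probe set each. The day 5 arrays lay above all day 1 arrays for 8 genes (the 7 called and HSPA9) and below them for 6 (the 5 called and CLPX), where 12.0% and 10.2% of all probe sets did so. At an unadjusted p under 0.05, 13 genes were higher (39.4%, against 15.6% of all probe sets) and 6 lower (18.2%, against 14.1%). The median change was 0.09, beside -0.02 over all probe sets. Without the probe sets of another homolog the counts were 5 higher and 5 lower and the median -0.01. The level of the BioC hybridisation spike-ins split the biceps femoris arrays into day 1 replicates 1 to 3 (8.874 to 9.127) and the other 5 (7.43 to 7.969). The split nearly coincides with the day. With it as a block, a change rests on day 1 replicate 4 alone against the day 5 arrays, so no calls are given. The change was then 0.76 for PHB, 0.81 for GRPEL1, 0.34 for TOMM20, -1.22 for SAMM50, -0.83 for TIMM44 and -0.44 for IMMT. For LONP1, whose probe set was low on that array, it was 1.23. None of the 12 called genes reversed its sign. The 28S ribosomal RNA probe sets also separated the groups, at 12.088 to 13.116 at day 5 against 11.68 to 12.073 at day 1, and the part of this in the results was not tested.

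**Figure D1:**
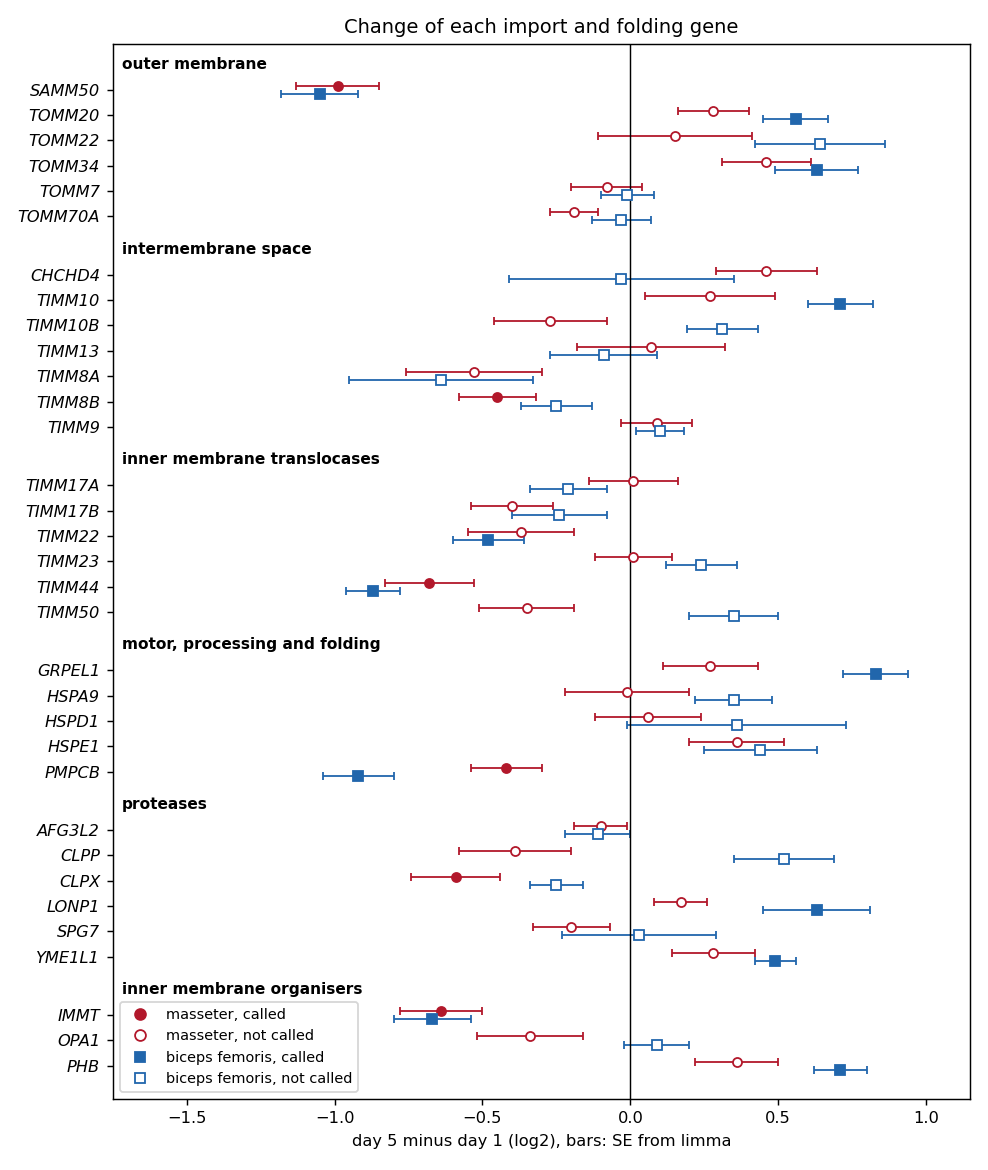
Change (day 5 minus day 1, log2) of each of the 33 genes by its representative probe set, grouped by place in the import route, with masseter as red circles and biceps femoris as blue squares. Bars are SE from limma (5 against 5 and 4 against 4 arrays) and filled symbols passed an adjusted p of 0.05; 6 masseter symbols and 12 biceps femoris symbols are filled, and all 6 in masseter lie left of 0.

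At the outer membrane, SAMM50, the core of the SAM complex, fell in both muscles. The SAMM50 values in masseter were 9.49, 9.81, 9.62, 9.46 and 9.66 at day 5, against 11.00, 10.30, 10.35, 10.72 and 10.62 at day 1. Every day 5 array lay below every day 1 array, and all 5 piglets were lower at day 5. SAMM50 thus changed by -0.99 ± 0.14 (SE, limma adjusted p = 0.00173), a level 1.99-fold lower. In biceps femoris SAMM50 had 9.01, 9.36, 9.13 and 9.09 at day 5, against 10.16, 9.91, 10.37 and 10.37 at day 1. The groups did not overlap here either, and the change was -1.05 ± 0.13 (adjusted p = 0.00111), or 2.08-fold lower. This is the widest fall among the 33 genes in each muscle. A second SAMM50 probe set gave -0.02 ± 0.09 (adjusted p = 0.897) in masseter and -0.15 ± 0.13 (adjusted p = 0.508) in biceps femoris. That probe set read 2.95 to 3.59 on the 18 arrays, in the lowest 25% of all probe sets (mean under 4.45), so it could hardly show a fall, and the fall is measured by 1 probe set.

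Of the 5 TOMM genes, 2 rose in biceps femoris, where 13.2% of all named genes were called higher. In masseter the changes of the 5 lay between -0.19 and 0.46 and did not pass the test. TOMM20, the receptor that binds presequences, had 11.31, 11.22, 11.23 and 11.16 in biceps femoris at day 5, against 10.72, 10.41, 10.67 and 10.90 at day 1. All 4 day 5 arrays were above all day 1 arrays, and TOMM20 rose by 0.56 ± 0.11 (SE, limma adjusted p = 0.00983). The masseter values of TOMM20 were 10.17, 10.61, 10.65, 10.56 and 10.77 at day 5, against 10.49, 10.26, 10.23, 10.17 and 10.19 at day 1. Day 5 replicate 1 was as low as the lowest day 1 array while the other 4 exceeded all day 1 arrays, and the change was 0.28 ± 0.12 (adjusted p = 0.141). The second TOMM20 probe set went the other way without passing the test, with -0.40 ± 0.13 in masseter and -0.29 ± 0.19 in biceps femoris.

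TOMM34, a cytosolic cochaperone of precursor proteins, had 6.53, 7.03, 6.95 and 6.60 in biceps femoris at day 5, against 6.19, 6.33, 6.01 and 6.07 at day 1. The groups stood apart and the change was 0.63 ± 0.14 (adjusted p = 0.0152). In masseter its day 5 values were 7.21, 6.84, 7.79, 7.49 and 7.32, against 6.83, 6.79, 6.91, 6.96 and 6.88 at day 1. Here day 5 replicate 2 lay among the day 1 arrays, all 5 piglets were higher at day 5, and the change of 0.46 ± 0.15 did not pass the test (adjusted p = 0.0659), whereas without that array it was 0.58 ± 0.12 (adjusted p = 0.0148).

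TOMM22, the central receptor that links the others to the pore, changed by 0.15 ± 0.26 in masseter and 0.64 ± 0.22 in biceps femoris, with adjusted p of 0.752 and 0.087. In biceps femoris its day 5 replicate 1, at 9.47, lay among the day 1 arrays (8.95 to 9.68), and without that array the change was 0.82 ± 0.17 (adjusted p = 0.0156). TOMM7, a small subunit that modulates the assembly of the complex, differed by -0.08 ± 0.12 in masseter and -0.01 ± 0.09 in biceps femoris. TOMM70A, the receptor for carrier proteins, differed by -0.19 ± 0.08 and -0.03 ± 0.10, and of its 3 probe sets another 1 was called lower in masseter (-0.49 ± 0.14, adjusted p = 0.0404).

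**Figure D2:**
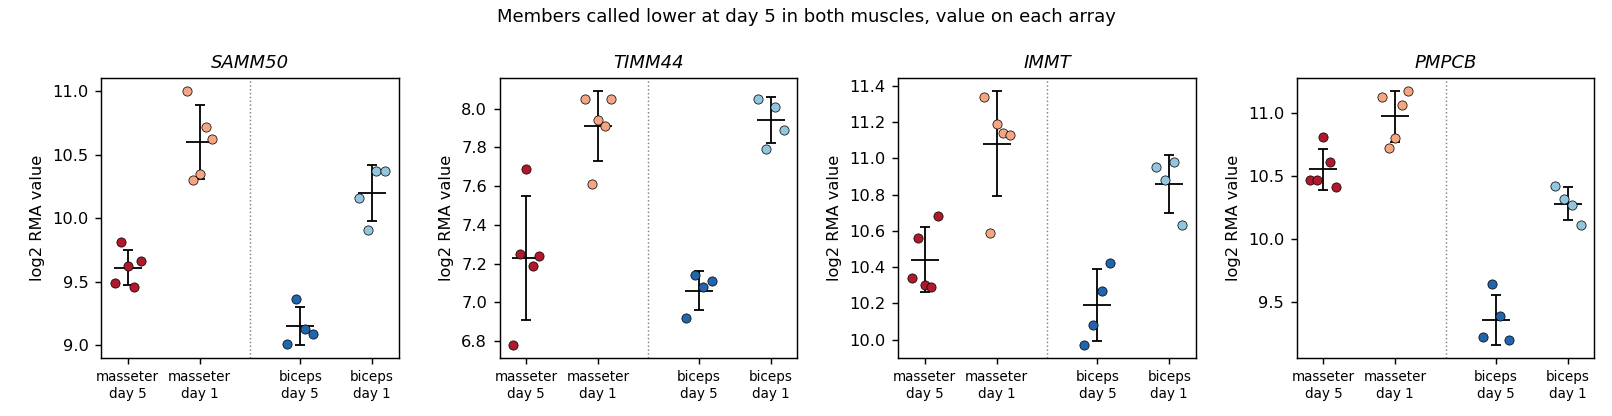
Log2 RMA values of the 4 genes called lower in both muscles, 1 point per array, with the group mean as a dash and its SD as a bar (n = 5 per masseter group, n = 4 per biceps femoris group). Day 5 stands left of day 1, the dotted line parts the separately normalized muscles, and in biceps femoris the day 5 points lie below all day 1 points in every panel, while in masseter the groups of TIMM44, IMMT and PMPCB touch.

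In the intermembrane space, 1 of 7 genes rose in biceps femoris and 1 fell in masseter. Each is 14.3%, against 13.2% of all named genes called higher in biceps femoris and 8.37% called lower in masseter. TIMM10, which pairs with TIMM9 to chaperone hydrophobic precursors, had 10.08, 9.70, 9.98 and 9.97 in biceps femoris at day 5, against 9.07, 9.13, 9.35 and 9.33 at day 1. The groups did not overlap, and TIMM10 rose by 0.71 ± 0.11 (SE, limma adjusted p = 0.00369), or 1.64-fold. In masseter TIMM10 had 8.39, 9.44, 9.50, 9.47 and 9.78 at day 5, against 9.12, 9.14, 8.84, 8.93 and 9.17 at day 1. Day 5 replicate 1 was below all the others and the remaining 4 were above every day 1 array, so that the change was 0.27 ± 0.22 (adjusted p = 0.451) with that array and 0.50 ± 0.11 (adjusted p = 0.0101) without it. The partner TIMM9 differed by 0.09 ± 0.12 in masseter and 0.10 ± 0.08 in biceps femoris.

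TIMM8B, a small TIM chaperone, had 11.07, 11.54, 11.61, 11.62 and 11.77 in masseter at day 5, against 12.12, 11.93, 11.86, 11.99 and 11.97 at day 1. No day 5 array reached a day 1 array, and the change was -0.45 ± 0.13 (adjusted p = 0.0366). The call was lost in 7 of the 10 fits that left out 1 array (day 1 replicates 1, 2, 4 and 5 and day 5 replicates 2, 3 and 4), with adjusted p of 0.0514 to 0.0855. In biceps femoris TIMM8B differed by -0.25 ± 0.12 (adjusted p = 0.209). Its second probe set had a positive change in both muscles, 0.24 ± 0.12 in masseter (adjusted p = 0.23) and 0.54 ± 0.15 in biceps femoris (adjusted p = 0.0464), so the direction for TIMM8B depends on the probe set.

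TIMM8A, which works with TIMM13, had 9.13, 7.90, 7.55 and 8.08 in biceps femoris at day 5, against 8.74, 8.55, 8.90 and 9.01 at day 1. Day 5 replicate 1 lay above all day 1 arrays and the other day 5 arrays below them, and the change was -0.64 ± 0.31 (adjusted p = 0.208) with it and -0.96 ± 0.16 (adjusted p = 0.00566) without it. CHCHD4, the oxidoreductase that traps small cysteine-rich proteins, was high on the same array, with 8.55, 6.73, 6.61 and 7.42 at day 5 against 7.42, 7.29, 7.25 and 7.44 at day 1. Its change was -0.03 ± 0.38 in biceps femoris (-0.43 ± 0.19 without that array, adjusted p = 0.171) and 0.46 ± 0.17 in masseter (adjusted p = 0.0891). TIMM13 differed by 0.07 ± 0.25 in masseter and -0.09 ± 0.18 in biceps femoris, and TIMM10B, a subunit bound to the TIM22 complex, by -0.27 ± 0.19 and 0.31 ± 0.12.

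Among 6 genes of the inner membrane translocases, TIMM44 fell in both muscles and TIMM22 in biceps femoris. These were 16.7% in masseter and 33.3% in biceps femoris, against 8.37% and 9.19% of all named genes. TIMM44 tethers the import motor to the TIM23 channel. In masseter it had 6.78, 7.25, 7.69, 7.19 and 7.24 at day 5, against 8.05, 7.61, 7.94, 7.91 and 8.05 at day 1. Day 5 replicate 3 exceeded day 1 replicate 2, the other day 5 arrays lay below all of day 1, and all 5 piglets were lower at day 5. The change was -0.68 ± 0.15 (SE, limma adjusted p = 0.0167). In biceps femoris TIMM44 had 6.92, 7.14, 7.08 and 7.11 at day 5, against 8.05, 7.79, 8.01 and 7.89 at day 1, with no overlap and a change of -0.87 ± 0.09 (adjusted p = 0.000587). Of its 3 probe sets, 2 were called lower in masseter (changes of -0.79 to -0.49 over all 3) and 3 in biceps femoris (-0.87 to -0.58).

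TIMM22, the channel for carrier proteins, had 6.72, 6.70, 6.30 and 6.31 in biceps femoris at day 5, against 7.05, 6.95, 7.05 and 6.90 at day 1. The day 5 arrays were all below the day 1 arrays and the change was -0.48 ± 0.12 (adjusted p = 0.0299). That call was lost in 5 of 8 fits without 1 array (day 1 replicates 1, 2 and 3 and day 5 replicates 3 and 4), with adjusted p of 0.0674 to 0.0816. In masseter TIMM22 differed by -0.37 ± 0.18 (adjusted p = 0.193), with day 5 replicate 1 at 6.0 and the other day 5 arrays between 6.48 and 7.05. TIMM23, the channel for presequence proteins, differed by 0.01 ± 0.13 in masseter and 0.24 ± 0.12 in biceps femoris. Its partners TIMM17A (0.01 ± 0.15 and -0.21 ± 0.13) and TIMM17B (-0.40 ± 0.14 and -0.24 ± 0.16) did not pass the test in either muscle. TIMM50, the receptor of the TIM23 complex, had changes of opposite sign, -0.35 ± 0.16 in masseter and 0.35 ± 0.15 in biceps femoris, with adjusted p of 0.185 and 0.151, and both of its probe sets had these signs. Without day 1 replicate 3 the biceps femoris change was 0.48 (adjusted p = 0.0437).

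In the matrix, GRPEL1, the exchange factor that resets the motor chaperone, had the widest rise of the 33 genes in biceps femoris. Its values there were 10.02, 9.90, 9.72 and 9.63 at day 5, against 9.08, 9.02, 8.86 and 9.01 at day 1. The groups were well apart, and GRPEL1 rose by 0.83 ± 0.11 (SE, limma adjusted p = 0.00138), or 1.78-fold. In masseter GRPEL1 had 9.07, 9.81, 9.96, 9.87 and 9.73 at day 5, against 9.37, 9.59, 9.15, 9.53 and 9.47 at day 1. Again day 5 replicate 1 was the lowest of all 10 arrays and the other 4 were above all of day 1. The change was 0.27 ± 0.16 (adjusted p = 0.317) with that array and 0.42 ± 0.10 (adjusted p = 0.0209) without it.

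HSPA9, the motor chaperone itself (mortalin), had 12.40, 11.88, 11.93 and 12.14 in biceps femoris at day 5, against 11.79, 11.84, 11.54 and 11.77 at day 1. The groups did not overlap but the change of 0.35 ± 0.13 did not pass the test (adjusted p = 0.112). Of its 3 probe sets there, the changes were 0.35 to 0.63, and 1 of them was called higher (0.63 ± 0.12, adjusted p = 0.0077). In masseter the HSPA9 values were 11.88, 12.74, 12.54, 12.87 and 12.98 at day 5, against 13.03, 12.33, 12.45, 12.60 and 12.64 at day 1, with a change of -0.01 ± 0.21. The lowest array was day 5 replicate 1 and the highest day 1 replicate 1, from the same piglet, while the other 4 piglets were higher at day 5.

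PMPCB, the catalytic subunit of the presequence peptidase, fell in both muscles. In biceps femoris PMPCB had 9.22, 9.64, 9.39 and 9.20 at day 5, against 10.42, 10.32, 10.27 and 10.11 at day 1. The gap was wide and the change -0.92 ± 0.12 (adjusted p = 0.00154), or 1.89-fold lower. In masseter the values were 10.47, 10.47, 10.81, 10.61 and 10.41 at day 5, against 11.12, 10.72, 10.80, 11.06 and 11.17 at day 1. The groups overlapped, and the change was -0.42 ± 0.12 (adjusted p = 0.0367). It was lost in 7 of 10 fits without 1 array (day 1 replicates 1, 4 and 5 and day 5 replicates 1, 2, 4 and 5), with adjusted p of 0.0502 to 0.0902.

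The chaperonin genes HSPD1 (HSP60) and HSPE1 (HSP10), which lie next to each other on pig chromosome 15, did not pass the test in either muscle. HSPD1 had 13.02, 11.22, 11.25 and 11.41 in biceps femoris at day 5, against 11.43, 11.32, 11.24 and 11.49 at day 1. Replicate 1 stood far above the other 7 arrays, and the change was 0.36 ± 0.37 (adjusted p = 0.587) with it and -0.07 ± 0.10 without it. HSPE1 was highest on the same array, with 12.57, 11.81, 11.72 and 12.09 at day 5 against 11.65, 11.62, 11.79 and 11.37 at day 1, a change of 0.44 ± 0.19 (adjusted p = 0.161), or 0.27 ± 0.13 without that array (adjusted p = 0.23). In masseter HSPD1 differed by 0.06 ± 0.18 and HSPE1 by 0.36 ± 0.16 (adjusted p = 0.156). Day 5 replicate 1 of biceps femoris also had the highest 3' minus 5' difference of the actin control sets, a measure that rises as RNA integrity falls. It was 2.045 there, against 1.038 to 1.155 on the other day 5 arrays and 1.394 to 1.725 at day 1. The GAPDH control sets differed less, with -0.418 there, against -0.464 to -0.452 on the other day 5 arrays and -0.483 to -0.437 at day 1. The part of these differences in the high values was not tested.

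**Figure D3:**
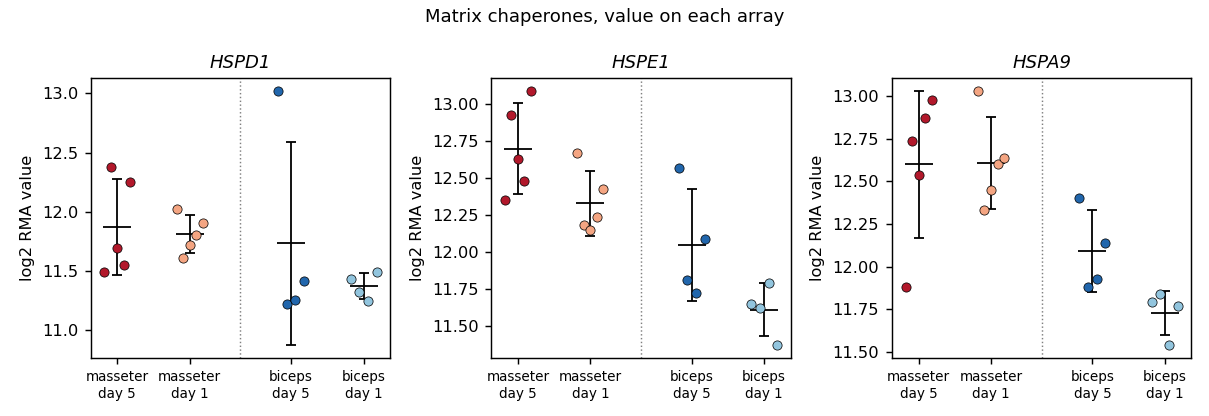
Log2 RMA values of the chaperonin genes HSPD1 and HSPE1 and of the motor chaperone HSPA9, 1 point per array, with the mean as a dash and the SD as a bar (n = 5 per masseter group, n = 4 per biceps femoris group). Day 5 is left of day 1 in each muscle, and the HSPD1 point at 13.02 in biceps femoris at day 5 lies far above the other 7 arrays of that muscle.

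Of 6 protease genes, YME1L1 and the probe set that represents LONP1 rose in biceps femoris, and CLPX fell in masseter. These were 33.3% and 16.7%, against 13.2% of all named genes called higher in biceps femoris and 8.37% called lower in masseter. YME1L1, the protease of the inner membrane that faces the intermembrane space, had 10.68, 10.59, 10.70 and 10.56 in biceps femoris at day 5, against 10.15, 10.08, 10.17 and 10.15 at day 1. The arrays within each group were close together and the groups apart, with a rise of 0.49 ± 0.07 (SE, limma adjusted p = 0.00282). In masseter it had 10.42, 11.21, 10.90, 10.90 and 10.89 at day 5, against 10.77, 10.64, 10.59, 10.38 and 10.54 at day 1. Among the day 5 arrays replicate 1 lay within the range of day 1, and the change was 0.28 ± 0.14 (adjusted p = 0.201) with it and 0.39 ± 0.11 (adjusted p = 0.0288) without it.

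CLPX, the unfoldase that feeds the CLPP protease, had 9.37, 8.76, 9.69, 9.36 and 9.39 in masseter at day 5, against 9.98, 9.81, 9.91, 9.81 and 10.02 at day 1. The day 5 arrays were below all day 1 arrays and the change was -0.59 ± 0.15 (adjusted p = 0.0259, but 0.0604 without day 1 replicate 1 and 0.0662 without day 1 replicate 5). In biceps femoris it had 9.85, 9.80, 9.69 and 9.73 at day 5, against 10.11, 10.13, 9.95 and 9.89 at day 1, also without overlap, but the change of -0.25 ± 0.09 did not pass the test (adjusted p = 0.0924). A second CLPX probe set differed by 0.10 ± 0.10 in masseter and -0.14 ± 0.09 in biceps femoris. CLPP itself had 7.69, 8.29, 8.36, 8.39 and 8.66 in masseter at day 5, against 9.03, 8.36, 8.40, 8.76 and 8.79 at day 1. In biceps femoris CLPP had 8.0, 8.71, 8.55 and 8.29 at day 5, against 7.89, 7.95, 8.07 and 7.57 at day 1. All 5 piglets were lower in masseter at day 5 and 3 of the 4 biceps femoris day 5 arrays were above all of day 1, but neither -0.39 ± 0.19 nor 0.52 ± 0.17 passed the test (adjusted p = 0.194 and 0.0762).

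The representative probe set of LONP1, the main matrix protease, carries RPL36, a ribosomal protein gene, as its human homolog in the deposited table, so its gene is uncertain. It had 12.73, 12.90, 12.82 and 12.74 in biceps femoris at day 5, against 12.35, 12.35, 12.39 and 11.57 at day 1. Day 1 replicate 4 lay far below its group, and the change was 0.63 ± 0.18 (adjusted p = 0.0484). Any fit without 1 array other than day 1 replicate 4 lost the call (7 of 8), with adjusted p of 0.0634 to 0.105. The other LONP1 probe set, with no such conflict, differed by -0.11 ± 0.08 (adjusted p = 0.425) in biceps femoris and -0.27 ± 0.10 (adjusted p = 0.108) in masseter. AFG3L2 and SPG7, the subunits of the protease of the inner membrane that faces the matrix, differed by -0.10 ± 0.09 and -0.20 ± 0.13 in masseter and by -0.11 ± 0.11 and 0.03 ± 0.26 in biceps femoris. The homolog entry of that SPG7 probe set names ARL6IP4.

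Of the genes that organise the inner membrane, IMMT (mitofilin), the core of the complex at cristae junctions, fell in both muscles. In masseter IMMT had 10.34, 10.56, 10.30, 10.29 and 10.68 at day 5, against 11.34, 10.59, 11.19, 11.14 and 11.13 at day 1. Day 1 replicate 2 was low and lay among the day 5 arrays, the other 4 were above all of them, and the change was -0.64 ± 0.14 (SE, limma adjusted p = 0.0154). In biceps femoris it had 9.97, 10.08, 10.27 and 10.42 at day 5, against 10.95, 10.88, 10.98 and 10.63 at day 1. The groups did not overlap and the change was -0.67 ± 0.13 (adjusted p = 0.00805).

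PHB (prohibitin) forms a ring scaffold of the inner membrane with PHB2, and the homolog entry of its representative probe set is REA, an older name of PHB2. That probe set had 10.52, 10.63, 10.60 and 10.60 in biceps femoris at day 5, against 9.86, 9.77, 10.07 and 9.83 at day 1, and rose by 0.71 ± 0.09 (adjusted p = 0.00121). Of the other PHB probe sets, 1 was also called higher there (0.68 ± 0.15, adjusted p = 0.016) and 1 was not (0.16 ± 0.11, adjusted p = 0.394). In masseter the representative had 10.42, 10.73, 10.95, 10.65 and 10.99 at day 5, against 10.72, 10.10, 10.38, 10.47 and 10.29 at day 1, a change of 0.36 ± 0.14 (adjusted p = 0.12). OPA1, the dynamin-like protein that fuses inner membranes, differed by -0.34 ± 0.18 in masseter and 0.09 ± 0.11 in biceps femoris by its representative. Another of its 4 probe sets was called lower in both muscles, by -0.81 ± 0.19 (adjusted p = 0.0203) and -0.86 ± 0.10 (adjusted p = 0.00097).

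**Figure D4:**
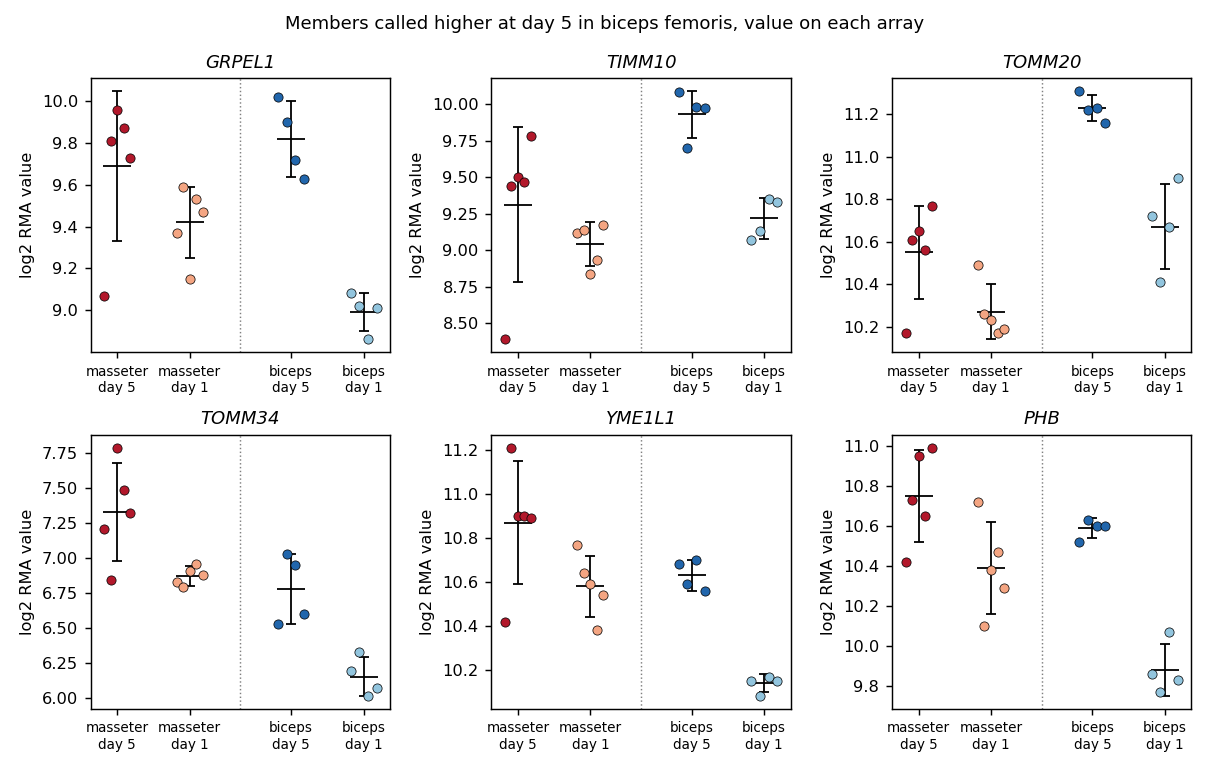
Log2 RMA values of 6 of the 7 genes called higher in biceps femoris, 1 point per array, with the mean as a dash and the SD as a bar (n = 5 per masseter group, n = 4 per biceps femoris group). Day 5 is left of day 1, all biceps femoris groups stand apart, and in masseter day 5 replicate 1 (leftmost point of its group) is the lowest day 5 array in 5 of the 6 panels.

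Among the fits without 1 array, the count of genes that rose in masseter moved most when day 5 replicate 1 was left out. That array was the lowest of the 5 day 5 arrays for 24 of the 33 genes, against 25.2% of all probe sets. Day 5 replicate 5 was the highest for 18, against 17.2% of all probe sets. Leaving out an array that is lowest for these genes raises their changes, so the calls gained are no independent support. Without day 5 replicate 1, 5 genes were called higher in masseter instead of 0. They were TIMM10, GRPEL1, TOMM20, YME1L1 and PHB, the last by the probe set whose homolog entry is REA. All 5 were among the 7 called higher in biceps femoris, an overlap that was not counted over all genes. With the array kept, 3 genes were called higher with array weights and 2 in 1 fit of all 18 arrays. In the fit without day 5 replicate 1, 15.2% of the 33 genes and 10.6% of all probe sets were called higher. With the array these were 0% and 7.31%. The closer background, all named genes with 1 probe set each, was 9.40% with the array. It was not counted in the fits without 1 array. Without day 5 replicate 2 the count was 1 (TOMM34). The genes called lower numbered 3 without day 1 replicate 1 or without day 1 replicate 5, and 4 to 6 without any other array. On day 5 replicate 1 the fibre markers averaged 14.11 against 13.34 to 13.93 on the other day 5 arrays, and the macrophage and leukocyte markers 7.72 against 6.66 to 7.25. Its actin 3' minus 5' difference of 2.487 lay within the range of the other 4 (2.376 to 2.706). That of the GAPDH control sets, -0.303, lay below the other 4 (-0.227 to -0.099) and within the day 1 range (-0.323 to -0.188). The part of these values was not tested. In biceps femoris, leaving out day 5 replicate 1 gave 8 genes higher (24.2%, against 10.8% of all probe sets) and 6 lower (18.2%, against 7.62%): TOMM22, with CLPP (0.65 ± 0.15, adjusted p = 0.0223), entered the first count while LONP1 left it, and TIMM8A entered the second.

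Between the muscles, 4 genes fell in both (IMMT, TIMM44, PMPCB and SAMM50), and 19 passed the test in neither. TIMM8B and CLPX were called lower in masseter alone, TIMM22 lower in biceps femoris alone, and 7 genes higher in biceps femoris alone. Such joint calls were not counted over all genes, so whether this sharing is unusual cannot be said. The test of the difference itself, the masseter change minus the biceps femoris change in 1 limma fit of all 18 arrays, called 0 of the 33 genes, where 0.0667% of all probe sets were called higher and 0.133% lower (0.0907% and 0.173% of all named genes). At an unadjusted p under 0.05, 1 gene had a higher difference (3.03%, against 5.14% of all probe sets) and 5 a lower one (15.2%, against 7.2%). The masseter change was the lower of the pair for 23 of 33 genes, or 69.7%, against 52.9% of all probe sets, and the median difference was -0.20 against -0.02. The smallest adjusted p was 0.172, for CLPP, whose difference was -0.91 ± 0.27 (95% interval -1.47 to -0.34). For SAMM50 the difference was 0.06 ± 0.20, with an interval of -0.35 to 0.48, and for IMMT 0.03 ± 0.20, with an interval of -0.39 to 0.45. For GRPEL1 it was -0.56 ± 0.21, with an interval of -1.01 to -0.11 and an adjusted p of 0.281. The same piglets gave both muscles, but the labels do not link their biceps femoris arrays to a piglet, so the fit took the muscles as independent.

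For 16 genes with several probe sets, the signs of the changes were the same across all probe sets of a gene for 8 genes in masseter and for 8 in biceps femoris. Of the 57 probe sets, 4 (of SAMM50, TOMM7, AFG3L2 and OPA1, with means of 3.13 to 4.29) lay in the lowest 25% by mean level, where the sign of a small change says little. Without these 4 the signs were the same for 7 of 14 genes in each muscle. Counting all 57 probe sets, 0 were called higher and 9 lower in masseter, and 10 higher and 8 lower in biceps femoris. A deposited probe set can match another end or form of a transcript, or another gene, and no probe sequences were used here to tell these apart.

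**Figure D5:**
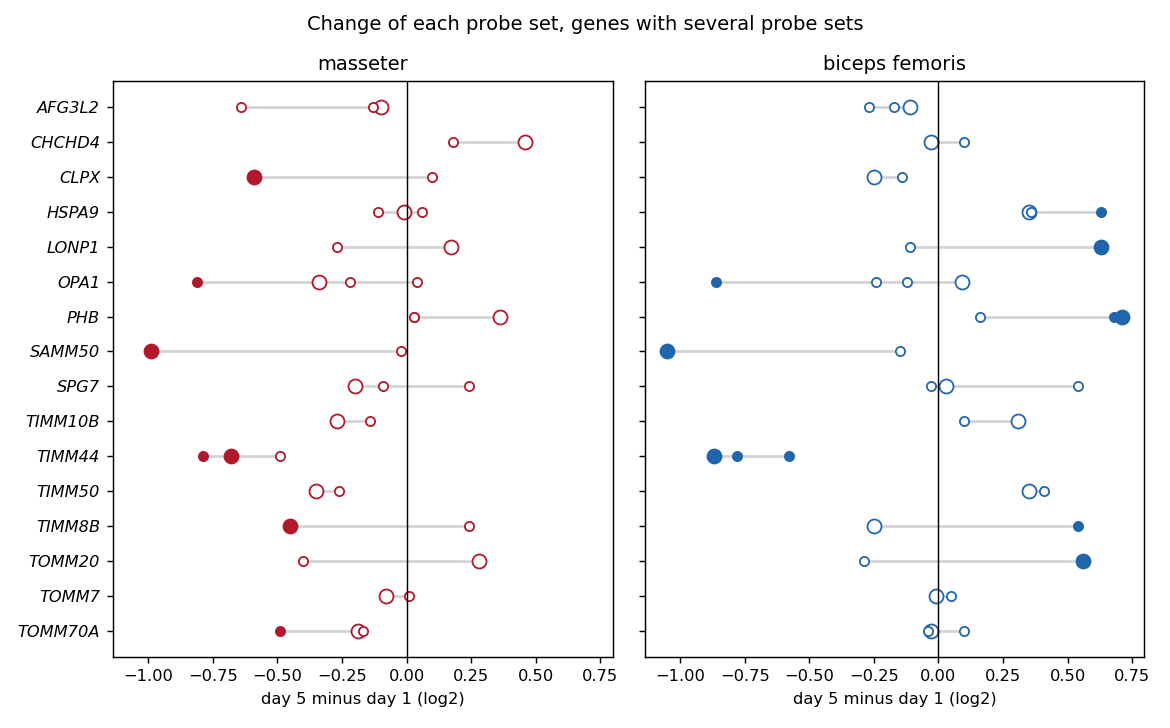
Change (day 5 minus day 1, log2) of each probe set of the 16 genes with several, in masseter (left) and biceps femoris (right). Large circles are the representative probe sets, filled circles passed an adjusted p of 0.05, and grey lines join the probe sets of a gene; those of TIMM44 all lie left of 0 in both muscles, while those of TOMM20, LONP1 and TIMM8B lie on both sides.

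Other genes of the route were taken from lists of known function. Of 24 further import and processing genes, 14 were found, with 2 called higher and 1 lower in masseter and 5 higher and 1 lower in biceps femoris. These were 14.3% and 7.14% in masseter, against 9.40% and 8.37% of all named genes. In biceps femoris they were 35.7% and 7.14%, against 13.2% and 9.19%. MIPEP, a matrix peptidase that trims proteins after the presequence peptidase, fell in both, to a mean of 7.94 in masseter at day 5 against 9.18 at day 1 (change -1.23 ± 0.29, adjusted p = 0.0179), and to 7.21 in biceps femoris at day 5 against 8.70 at day 1 (change -1.48 ± 0.13, adjusted p = 0.000344). GFER, which reoxidises CHCHD4, rose by 0.36 ± 0.09 in masseter (adjusted p = 0.0274) and by 0.46 ± 0.09 in biceps femoris (adjusted p = 0.0102). DNAJA1, a cytosolic cochaperone, rose by 1.94 ± 0.32 in masseter (adjusted p = 0.00418) and differed by 1.51 ± 0.86 in biceps femoris (adjusted p = 0.288). IMMP2L, an inner membrane peptidase, differed by 0.16 ± 0.15 in masseter (adjusted p = 0.535) and rose by 0.83 ± 0.14 in biceps femoris (adjusted p = 0.00513). The difference between the muscles was not called for either gene (adjusted p = 0.895 for DNAJA1 and 0.21 for IMMP2L). Of 10 other mitochondrial chaperone and protease genes, 4 were found, with 0 called in masseter and 1 in biceps femoris, STOML2, a prohibitin relative, which rose by 0.66 ± 0.10 (adjusted p = 0.00237) and differed by 0.14 ± 0.17 in masseter.

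Of 14 further cristae and fusion genes, 6 were found, with 1 called higher and 1 lower in masseter and 0 higher and 3 lower in biceps femoris. Among all named genes, 9.40% were called higher and 8.37% lower in masseter, and 13.2% and 9.19% in biceps femoris. MFN2, which fuses outer membranes, fell by 1.09 in masseter (SE 0.18, adjusted p = 0.00412) and by 1.16 in biceps femoris (SE 0.12, adjusted p = 0.0006). CHCHD3, a partner of IMMT, rose by 0.40 ± 0.10 in masseter (adjusted p = 0.0222) and differed by 0.18 ± 0.12 in biceps femoris. CHCHD6, another partner, differed by -0.73 ± 0.47 in masseter and fell by 1.84 in biceps femoris (SE 0.32, adjusted p = 0.00539). DNM1L differed by -0.78 ± 0.24 in masseter (adjusted p = 0.0503) and fell by 0.91 in biceps femoris (SE 0.16, adjusted p = 0.00522). Of 8 genes linked to mitochondrial stress responses, 6 were found, with 2 called higher and 0 lower in masseter and 2 higher and 1 lower in biceps femoris. ATF4, the factor of the integrated stress response, rose by 0.87 ± 0.12 in masseter (adjusted p = 0.00186) and by 0.59 ± 0.11 in biceps femoris (adjusted p = 0.00783). HSF1, the heat shock factor, rose by 0.55 ± 0.12 (adjusted p = 0.0138) and 0.85 ± 0.10 (adjusted p = 0.000861). ASNS went the other way. It differed by -1.06 ± 0.89 in masseter (adjusted p = 0.471) and fell by 1.58 in biceps femoris (SE 0.45, adjusted p = 0.0427). ATF5, DDIT3 and CEBPB were called in neither muscle.

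Genes whose proteins pass through this route were counted for comparison. Among all named genes, 9.40% were called higher and 8.37% lower in masseter, and 13.2% and 9.19% in biceps femoris. Of 73 genes of oxidative phosphorylation, 0 were called higher and 56 lower in masseter, with a median change of -0.66, and 0 higher and 53 lower in biceps femoris, with a median of -0.78. Of 12 citric acid cycle genes, 0 were called higher and 7 lower in each muscle, with medians of -0.56 in masseter and -0.39 in biceps femoris. Of 71 genes of the mitochondrial ribosome, 2 were called higher and 11 lower in masseter, with a median of -0.19, and 14 higher and 10 lower in biceps femoris, with a median of 0.06. The medians of the 33 import and folding genes, -0.08 and 0.09, lay closer to those of the ribosome genes than to those of oxidative phosphorylation in both muscles. No test of the difference between lists was made.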

How the data were processed

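Per the labels, RNA was isolated by Trizol and cleaned on RNeasy columns, and 3 µg was labelled with biotin for Affymetrix arrays. The authors deposited log2 values made with RMA, per the submitters' processing notes. These log2 values were used as they stand, between 2.522 and 15.222. They were equal to those of the authors' table for biceps femoris, whose own adjusted p-values and log2 fold changes, per the file headers, served only as a check. Its B-statistic, a log odds score by the authors per the file headers, was not used. After removal of 124 control sets, 23999 of 24123 probe sets were tested, with no filter on low values.

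The genes, lists and roles were chosen with earlier results of these data known, and count as no independent support. A gene is represented by its probe set with the highest mean over the 18 arrays, and values per array are given for called genes and others where 1 array stands apart. The shares called among all probe sets were below those among named genes with 1 probe set each. Where only the share of all probe sets is given, it is therefore an unlike background. Each muscle was fitted alone in limma 3.58.1 (R 4.3.3; lmFit, eBayes, two-sided), and the difference between the muscles in 1 fit of 4 groups. The number of arrays limits the precision. P-values measure the spread between these arrays.

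Masseter numbers pair the arrays, since the sample descriptions name the same piglets. The deviations of same-numbered masseter arrays from their group means had correlations of -0.03 to 0.12. Biceps femoris arrays share numbers only. Source and treatment labels call biceps femoris day 1 treated, whereas titles and descriptions call it control, and the second was followed. Alternatives were another normalization, array weights, a trend with robust variances, blocks, a filter on low values, other probe set rules and leaving out each array. The alternatives of exact names, of leaving out probe sets of another homolog and of a sign tally without low probe sets were added after the data were seen.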

Additional observations from a re-analysis of the deposited data

Results flagged for a closer look

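Within 132 groups of 4 or 5 arrays (33 genes in 4 groups), the gap of the highest or lowest array to the next, set against the range of the group, was over Dixon's 95% critical value for 8. Chance gives about 1 in 20 groups. Of the 8, 4 were low values of masseter day 5 replicate 1: TIMM10 at 8.39 (other day 5 arrays 9.44 to 9.78), TIMM10B at 7.78 (8.58 to 8.79), TIMM9 at 9.96 (10.25 to 10.32) and GRPEL1 at 9.07 (9.73 to 9.96). HSPD1 was high on biceps femoris day 5 replicate 1, at 13.02 (11.22 to 11.41 on the others). IMMT was low on masseter day 1 replicate 2, at 10.59 (11.13 to 11.34), TOMM20 was high on masseter day 1 replicate 1, at 10.49 (10.17 to 10.26), and the LONP1 probe set was low on biceps femoris day 1 replicate 4, at 11.57 (12.35 to 12.39).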

How the results depend on the processing

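Representative probe sets gave 18 calls of the import and folding genes (6 in masseter, 12 in biceps femoris). None changed direction in the alternative fits, 17 in masseter and 16 in biceps femoris. TIMM44 and SAMM50 kept their calls in masseter in all 17. The BioC block of biceps femoris rests on 1 day 1 array, so its calls are not counted. In all other biceps femoris fits PHB, TIMM44, GRPEL1, SAMM50, IMMT, TIMM10, PMPCB, TOMM34 and YME1L1 kept theirs. TIMM22, TOMM20 and LONP1 lost theirs in some of these fits. Leaving out probe sets of another homolog, which changes the probe set, is not among these fits. In biceps femoris PHB was then not called (0.16 ± 0.11, adjusted p = 0.394). LONP1 then had the other sign and was not called (-0.11 ± 0.08, adjusted p = 0.425). Import and folding genes called higher in masseter numbered 3 with array weights and 2 in 1 fit of all 18 arrays, against 0. In biceps femoris the block of BioC level gave 1306 probe sets in all, against 4117, with 3 import and folding genes higher and 2 lower, and raised the LONP1 change to 1.23. Counting every probe set gave 8 lower. Across all probe sets, the difference between muscles called 48, against 17 after a further quantile normalization, 527 with array weights (1 import and folding gene lower, CLPP, adjusted p = 0.0436) and 24 with trend and robust variances. With the replicate number as a block, masseter called 2356 probe sets, against 3318, and 3 import and folding genes lower. The same block gave 3041 in biceps femoris, against 4117, and 0 for the difference, and ended the calls of TIMM22 (adjusted p = 0.0599) and LONP1 (0.0617). Leaving out 1 array gave 2047 (without day 1 replicate 5) to 4628 calls in masseter (0 to 5 import and folding genes higher, 3 to 6 lower), 2951 to 4412 in biceps femoris (6 to 8 higher, 4 to 6 lower) and 9 (without biceps femoris day 5 replicate 3) to 266 (without biceps femoris day 5 replicate 1) for the difference (0 and 0). The cause of these shifts was not tested.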
